A study of Mus with 4 samples.

Results

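Interferon-linked PARP genes and their partners were followed in cochlear tissue of mice with an early stop codon in Otof (c.1315 C>T, p.R439X), the gene of otoferlin, which inner hair cells need to release transmitter. The members were taken by gene symbol: Parp9, Parp10, Parp11, Parp12 and Parp14, the ubiquitin ligase gene Dtx3l, the zinc finger antiviral protein gene Zc3hav1, and the helicase gene Helz2. All 8 are in the table, which lists 21230 genes, and none was dropped by a minimum on low values. RNA was sequenced in 4 libraries. The 2 RESTARTv3 libraries came from mice with this change whose inner ear was injected with RESTART v3 in a viral vector (AAVie), and the 2 untreated libraries came from mice with the same change and no RESTART v3. RESTART v3 joins a guide RNA and a DKC1 isoform, which turn the uridine of the early stop codon into pseudouridine, with a transfer RNA that reads the edited codon. The line was made by genome editing, and wild-type libraries were not analysed here. No injected control is labelled, so the effects of the operation, the vector and the RESTART v3 cargo cannot be told apart. The labels give neither age nor time after injection. The study's results text describes the tissue as taken before and after treatment, while a figure caption speaks of mice with or without the injection. A difference in age therefore cannot be told apart from treatment either. The study describes the replicates as biological, while the labels do not say which mice, or how many, each library came from.

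PARP proteins attach ADP-ribose to proteins or nucleic acids. Some family members build long chains, while most of those described here attach a single ADP-ribose unit. Several of them are induced by interferons, the secreted signals by which cells warn each other of viral nucleic acids, and act on viral RNA, viral proteins or the cell's own antiviral signalling. The interferon receptors act through Janus kinases on transcription factors, which enter the nucleus and switch on these genes. PARP9 and DTX3L bind each other and work as a pair, and PARP14 carries both a transferase domain and macrodomains, which bind ADP-ribose. ZAP, the product of Zc3hav1, belongs to the family by sequence but lacks transferase activity. It binds CpG-rich viral RNA and brings it to decay. HELZ2 is a large RNA helicase and nuclear receptor coactivator, also induced by interferon.

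The deposited values are RPKM, read counts divided by gene length and by the total of the library, with the whole span of a gene, introns included, as its length. Whole reads could be recovered from them, and limma voom was run on those reads beside limma on the RPKM values. The untreated columns bear one name and are called A and B here, letters without order. The libraries differed in scale. Reads recovered from the values add up, over all listed genes, to 26.7% to 53.7% of the library totals in RESTARTv3. In untreated libraries they add up to 49.9% to 56.2%. The library totals run from 39650172 reads in untreated library A to 71144247 reads in RESTARTv3 replicate 1. Most genes had low values in RESTARTv3 replicate 2. Replicate 1 exceeded it by a median of 1.09 on the log2 scale over 14070 genes. Values were therefore also scaled by median-of-ratios, which sets the typical gene equal in all libraries. After scaling, RESTARTv3 replicates differed by a median absolute log2 ratio of 0.17, and the untreated libraries A and B by 0.91. The untreated pair thus differed more than the RESTARTv3 pair.

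The genes of the Parp14, Dtx3l and Parp9 cluster lay highest in RESTARTv3 libraries relative to untreated ones, 2.39-fold to 2.87-fold in the means of scaled RPKM. These genes are neighbours: in the RefSeq annotation, 2 pseudogenes are all that lies between Parp14 and Dtx3l, and the spans of Dtx3l and Parp9 overlap at their ends. Parp11 and Parp12 stood 1.95-fold and 1.74-fold higher. Zc3hav1 stood 1.30-fold and Helz2 1.19-fold higher, and the means of Parp10 were nearly equal, with a ratio of 0.994. No member passed an adjusted p of 0.05 in any fit that used all 4 libraries.

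Parp14 encodes the largest of the mono-ADP-ribosyl transferases and joins that activity to ADP-ribose binding. It had 2.41 and 2.16 scaled RPKM in RESTARTv3 replicates 1 and 2, against 0.522 and 1.07 scaled RPKM in untreated libraries A and B. Both RESTARTv3 values lie above both untreated values, and library A is the lowest. The values rest on 8795 and 3304 reads in RESTARTv3 and on 761 and 3169 reads in untreated libraries. In the deposited RPKM the groups overlap, with 3.12 and 1.37 in RESTARTv3 and 0.484 and 1.41 in untreated libraries, since RESTARTv3 replicate 2 falls just below untreated library B. The log2 change (RESTARTv3 minus untreated) was 1.21 ± 0.88 for deposited values as log2(RPKM + 0.1) (SE; limma, Benjamini-Hochberg adjusted p = 1). After scaling it was 1.48 ± 0.45 (SE; limma, adjusted p = 0.752), and on recovered reads 1.59 ± 0.47 (SE; limma voom, adjusted p = 0.771).

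Dtx3l, whose product attaches ubiquitin to its targets together with PARP9, had 3.998 and 3.63 scaled RPKM in RESTARTv3 replicates 1 and 2, against 1.06 and 2.12 in untreated libraries A and B. Parp9, a macrodomain protein that guides DTX3L, had 0.953 and 1.03 scaled RPKM in RESTARTv3 libraries and 0.200 and 0.514 in untreated libraries A and B. For both genes the groups do not overlap after scaling, and untreated library A is the lowest of the 4. In deposited RPKM they overlap: Dtx3l had 5.17 and 2.30 in RESTARTv3 and 0.986 and 2.79 in untreated libraries, and Parp9 had 1.23 and 0.652 in RESTARTv3 and 0.185 and 0.677 in untreated libraries. The read counts behind these values ran from 247 to 2947 for Parp9 and from 489 to 4601 for Dtx3l, so counting error is at most 6.36% of a value, below the spread of the untreated pair. The changes on recovered reads were 1.32 ± 0.47 for Dtx3l and 1.60 ± 0.53 for Parp9 (SE; limma voom, adjusted p = 0.771 for each). Since the ends of these genes overlap and the strand setting of the counting is not given in the sources used here, reads from their shared stretch cannot be assigned with certainty.

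The cluster can also be read within a library, where no scaling enters. There were 1.91 and 1.88 Parp14 reads per Dtx3l read in RESTARTv3 replicates 1 and 2, and 1.56 and 1.60 in untreated libraries A and B. The ratio was thus close within each group and 1.20-fold higher in RESTARTv3, while each gene alone stood 1.996-fold to 2.05-fold higher in untreated library B than in A. Reads of Parp9 per Dtx3l read were 0.641 and 0.762 in RESTARTv3 and 0.505 and 0.651 in untreated libraries, so these ranges overlap. Reads of Parp14 per Parp9 read overlap too, at 2.98 and 2.47 in RESTARTv3 and 3.08 and 2.45 in untreated libraries. These ratios were chosen after the data had been seen. With 2 libraries a group the exact permutation test has a smallest p of 0.333, so ratios are given as values.

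**Figure D1:**
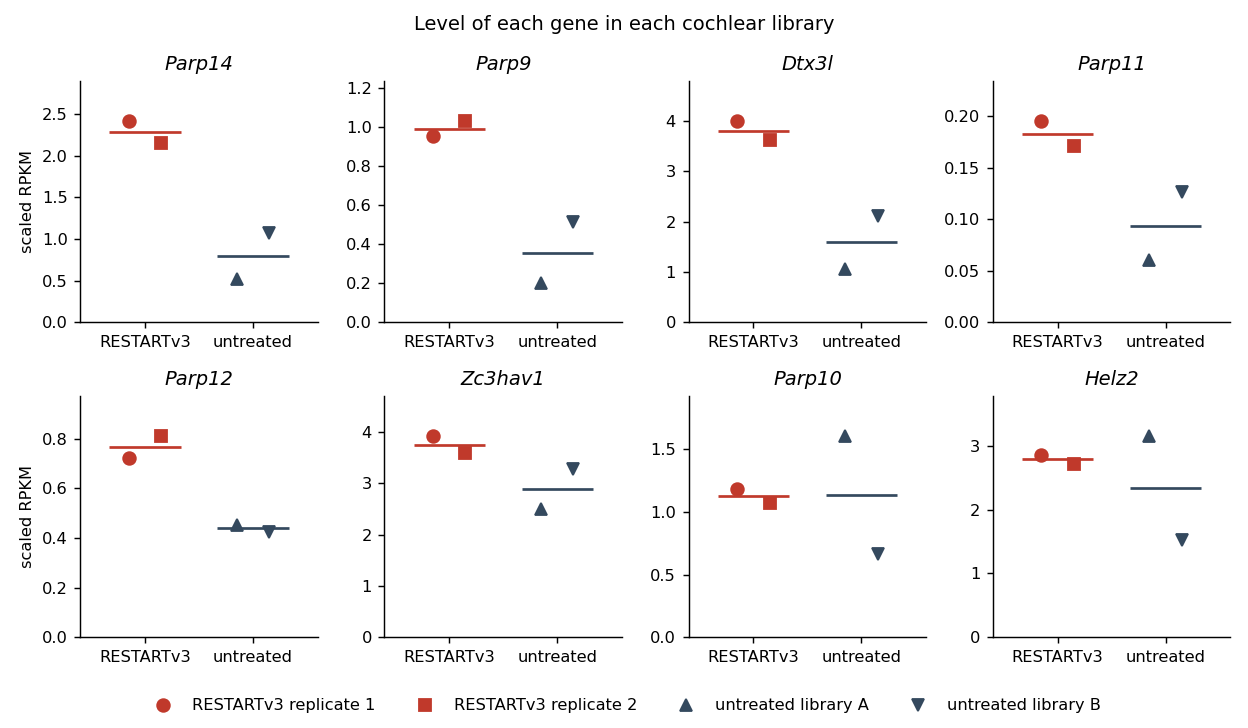
Level of each gene in each library, in RPKM after median-of-ratios scaling (vertical axis, from 0), with RESTARTv3 libraries in red, untreated libraries in dark blue and group means as lines (n = 2 each). The groups are apart in 6 of 8 genes, while Parp10 and Helz2 have untreated library A above and untreated library B below both RESTARTv3 libraries; Zc3hav1 is drawn on the gene length used in the deposited table.

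Parp12, a zinc finger transferase, showed the closest untreated pair. It had 0.722 and 0.811 scaled RPKM in RESTARTv3 replicates 1 and 2, against 0.455 and 0.425 in untreated libraries A and B. The groups do not overlap, and its untreated values differ by 1.07-fold, less than those of any other member. Its change on recovered reads was 0.80 ± 0.39 (SE; limma voom, adjusted p = 0.771), 0.87 without untreated library A and 0.74 without untreated library B. In deposited RPKM, with 0.934 and 0.514 in RESTARTv3 and 0.422 and 0.560 in untreated libraries, replicate 2 again falls between the untreated values.

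Parp11, a small transferase known to modify a ubiquitin ligase adaptor of the type I interferon receptor, was the lowest member per gene span. It had 0.195 and 0.171 scaled RPKM in RESTARTv3 replicates 1 and 2, against 0.0605 and 0.127 in untreated libraries A and B. The groups do not overlap, and library A is the lowest. The fewest reads of any member stand behind it, 150 in untreated library A, with a counting error of 8.16%. On recovered reads the change was 1.04 ± 0.50 (SE; limma voom, adjusted p = 0.771). It was 0.57 without untreated library A and 1.59 without untreated library B. On log2(RPKM + 0.1), which understates changes of low genes, it was 0.41 (limma, Benjamini-Hochberg adjusted p = 1).

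Zc3hav1 differed less. It had 3.92 and 3.585 scaled RPKM in RESTARTv3 replicates 1 and 2, against 2.49 and 3.27 in untreated libraries A and B. The groups do not overlap, but RESTARTv3 replicate 2 and untreated library B are close. The change on recovered reads was 0.39 ± 0.39 (SE; limma voom, adjusted p = 0.771), and it was 0.23 without untreated library A. On deposited RPKM its direction turned to -0.33 without untreated library A. Zc3hav1l, a shorter paralog of Zc3hav1, gives a ratio free of scaling, chosen after the data had been seen. There were 6.71 and 6.21 Zc3hav1 reads per Zc3hav1l read in RESTARTv3 and 5.52 and 5.35 in untreated libraries. Few Zc3hav1l reads stand behind it, 637 and 265 in RESTARTv3 replicates 1 and 2 and 197 and 542 in untreated libraries A and B. The counting error of the lowest is 7.12%. The RPKM level of Zc3hav1 cannot be set against that of other genes as deposited. Its values become whole reads at a length of 11866 bases, which is the annotated span of Zc3hav1l, while its own annotated span is 50067 bases. On its own span its deposited RPKM would be 1.20 and 0.538 in RESTARTv3 replicates 1 and 2, and 0.548 and 1.02 in untreated libraries A and B. Fold changes of the gene are not touched by this.

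Parp10 and Helz2 followed another pattern. Parp10, a mono-ADP-ribosyl transferase that also binds ubiquitin, had 1.18 and 1.07 scaled RPKM in RESTARTv3 replicates 1 and 2, against 1.61 and 0.666 in untreated libraries A and B. Helz2 had 2.87 and 2.71 in RESTARTv3 and 3.15 and 1.53 in untreated libraries A and B. Both genes were thus highest in untreated library A and lowest in untreated library B, by 2.41-fold and 2.06-fold between these libraries, with the RESTARTv3 pair between them. Parp14, Dtx3l, Parp9 and Parp11 ran the opposite way in the untreated pair, 1.996-fold to 2.57-fold higher in library B. The direction of Parp10 depends on scale and library. Its log2 change was -0.14 as deposited (limma, Benjamini-Hochberg adjusted p = 1), 0.10 after scaling (adjusted p = 0.937) and 0.16 on recovered reads (limma voom, adjusted p = 0.916). For Helz2 it was 0.06, 0.33 and 0.36 in the same fits, with adjusted p of 1, 0.794 and 0.787 (limma, Benjamini-Hochberg). On recovered reads without untreated library A the changes were 0.80 for Parp10 and 0.90 for Helz2, and without untreated library B they were -0.51 and -0.19.

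**Figure D2:**
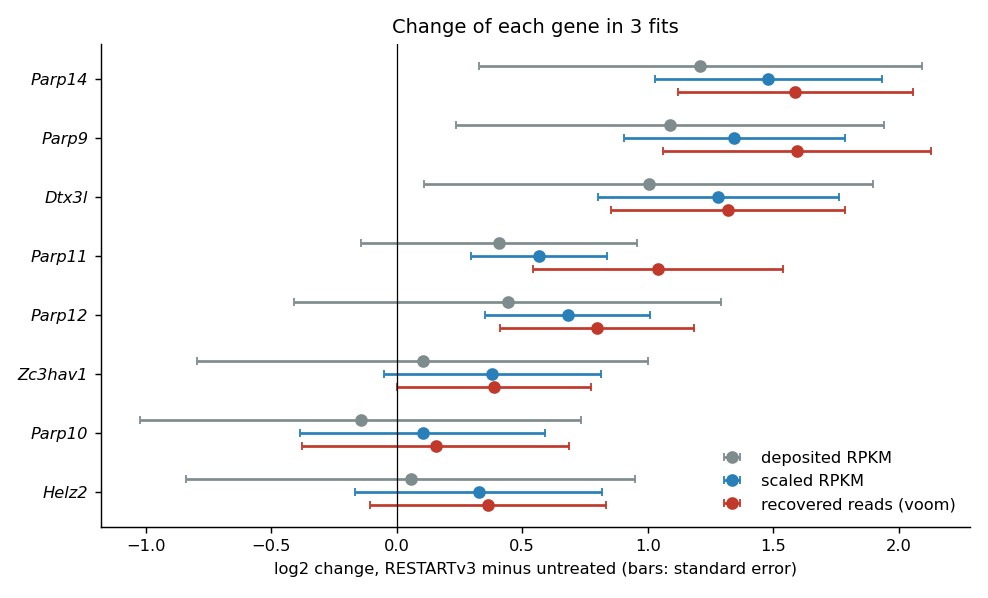
Log2 change of each gene (horizontal axis, RESTARTv3 minus untreated, bars of 1 standard error) from limma on deposited RPKM in grey, on scaled RPKM in blue and on recovered reads in red. Parp14, Parp9 and Dtx3l lie farthest right in each fit, at 1.004 to 1.21 on deposited RPKM and 1.32 to 1.60 on recovered reads, and the bars of deposited RPKM are the widest.

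Across the members, 0 of 8 passed an adjusted p of 0.05 on deposited RPKM, as did 0% of the 14070 genes tested (limma, Benjamini-Hochberg), 17 of which were higher and 114 lower at an unadjusted p under 0.05. No gene passed after scaling or by limma voom either. At an unadjusted p under 0.05, Parp14, Parp9 and Dtx3l were higher after scaling, 3 of 8 members against 1.3% of all genes tested, and the same genes were higher on recovered reads, against 1.37%. The unadjusted p on recovered reads was 0.0134 for Parp14, 0.0229 for Parp9 and 0.0281 for Dtx3l (limma voom). As deposited, the RESTARTv3 libraries were clear of the untreated ones, both higher, in 0 of 8 members, against 2.24% of all genes. After scaling this held for 6 of 8 members, against 16.2% of all genes. Set against untreated library B alone it held for 8 of 8 members and 25.9% of all genes, and set against untreated library A alone for 6 of 8 members and 44% of all genes. The median log2 change of the members was 0.42 as deposited, where the median of all tested genes was -0.25, and all 8 members lay above that median. On recovered reads the median was 0.92, where that of all tested genes was -0.01.

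Without untreated library B, the untreated group holds only library A, which is assumed to vary like the RESTARTv3 pair, which supplies all the spread of the fit and is much closer than the untreated pair (median absolute log2 ratios of 0.17 and 0.91). In that fit 7272 genes passed in either direction after scaling. Among them were 5 of 8 members, all higher (limma, Benjamini-Hochberg adjusted p = 0.0147 for Parp14), against 24% of all genes in that direction. On recovered reads without library B 6 of 8 members passed, against 21.4% of all genes. Without untreated library A the changes of Parp14, Dtx3l and Parp9 on recovered reads were 1.12, 0.88 and 0.97, and 0 of 8 members passed (limma voom, Benjamini-Hochberg adjusted p = 0.803 for Parp14). These changes were thus smaller against library B alone than against library A alone, with the same direction.

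Parp1, the abundant DNA damage sensor of the family, was used as a divisor within each library, chosen after its values had been seen. It had 1.21 and 1.05 scaled RPKM in RESTARTv3 and 1.31 and 1.05 in untreated libraries, so a ratio to it largely repeats the scaling and is no separate support. Per Parp1 read, Parp14 had 2.47 and 2.53 reads in RESTARTv3 replicates 1 and 2, against 0.492 and 1.26 in untreated libraries A and B. Dtx3l had 1.29 and 1.35 against 0.316 and 0.789, and Parp9 had 0.828 and 1.03 against 0.160 and 0.514, in the same order of libraries. The RESTARTv3 pair was above both untreated libraries in 6 of 8 members, against 11.9% of all genes on this ratio, and Parp10 and Helz2 overlapped again. Set against untreated library B alone, the mean of RESTARTv3 was 1.98-fold higher for Parp14, 1.58-fold for Parp10 and 1.07-fold for Zc3hav1.

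**Figure D3:**
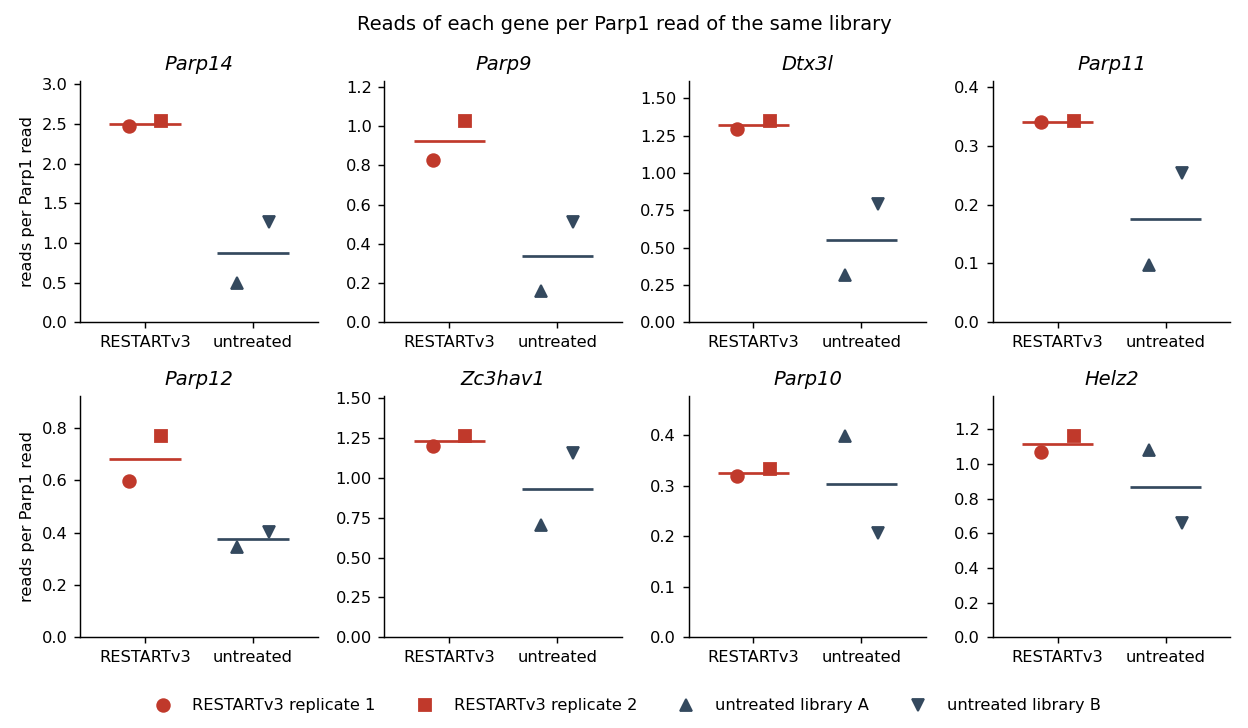
Reads of each gene per Parp1 read of the same library (vertical axis, from 0), a ratio that does not depend on scaling between libraries, with RESTARTv3 in red, untreated in dark blue and group means as lines (n = 2 each). The RESTARTv3 libraries are above both untreated ones in 6 of 8 genes, against 11.9% of all genes on the same ratio, with Parp14 at 2.47 and 2.53 against 0.492 and 1.26.

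Among themselves the members spanned a wide range of levels per gene span. In RESTARTv3 libraries the order of mean scaled RPKM was Dtx3l at 3.81 ± 0.262 (SD, n = 2), Helz2 at 2.79 ± 0.110, Parp14 at 2.28 ± 0.182, Parp10 at 1.13 ± 0.0779, Parp9 at 0.991 ± 0.0533, Zc3hav1 on its own span at 0.889 ± 0.0560, Parp12 at 0.767 ± 0.0629 and Parp11 at 0.183 ± 0.0172. No neighbours in this order overlap between the replicates. In untreated libraries Helz2 came first at 2.34 ± 1.15 (SD, n = 2), before Dtx3l at 1.59 ± 0.749 and Parp10 at 1.136 ± 0.664. Parp14 at 0.796 ± 0.388 and Zc3hav1 on its own span at 0.683 ± 0.130 came next. Neighbours among these genes overlap, while Zc3hav1 does not overlap Parp12, the next below it. Parp12 at 0.440 ± 0.0209 and Parp9 at 0.357 ± 0.222 followed, overlapping each other, with Parp11 last at 0.0936 ± 0.0468. Parp14 was thus above Parp10 in both RESTARTv3 libraries, while in untreated libraries the order of these genes differed between A and B. Levels here are per base of the whole gene, introns included, and do not give messenger RNA per transcript length.

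The rest of the PARP family was listed for 9 of 10 genes, and Tiparp was not analysed here. None of the 9 passed in limma's main test, and on recovered reads 0 of 9 reached an unadjusted p under 0.05. Their median log2 change on recovered reads was 0.03, with a range of -0.53 for Parp16, a transferase of the endoplasmic reticulum, to 0.67 for Parp8. After scaling, RESTARTv3 was above both untreated libraries in 1 of 9 and below both in 1 of 9, against 16.2% of all genes above and 21.5% below. Highest in deposited RPKM were Parp3, a DNA repair enzyme, with a log2 change of 0.03, and the tankyrases Tnks, with 0.14, and Tnks2, with 0.62. The level of Tnks is not comparable with the others, since its values give whole reads at a length far from its annotated span. Tnks2 had 1.48 and 1.39 scaled RPKM in RESTARTv3 replicates 1 and 2, against 0.593 and 1.46 in untreated libraries A and B. Only library A was thus far from the rest. Parp8 had 0.140 and 0.116 against 0.0574 and 0.108 in the same order, with library B close to RESTARTv3 replicate 2. Tankyrases build ADP-ribose chains and act in Wnt signalling and at telomeres.

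**Figure D4:**
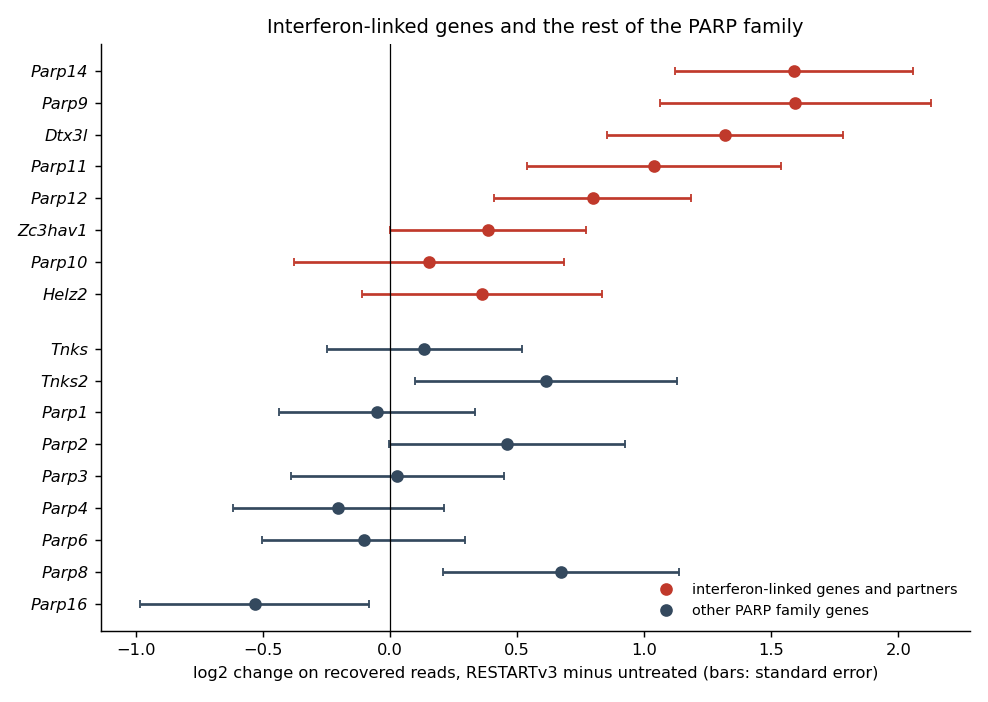
Log2 change on recovered reads (horizontal axis, RESTARTv3 minus untreated, limma voom, bars of 1 standard error) for the 8 interferon-linked genes and partners in red and 9 other PARP family genes in dark blue. The red points run from 0.16 to 1.60 and the dark blue ones from -0.53 to 0.67.

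Enzymes that remove ADP-ribose and relatives of DTX3L had median changes below 0 with all libraries, and untreated library A carried most of this. Without it, the median change on recovered reads relative to that of all genes was 0.02 for the hydrolases and -0.11 for the Deltex genes, against -0.39 and -0.92 with all libraries and -0.86 and -1.76 without untreated library B. Of the ADP-ribose hydrolase genes, 0 of 5 tested passed (limma, Benjamini-Hochberg), with a median change of -0.40 over the 7 measured on recovered reads. Highest in deposited RPKM were Oard1 with a change of 0.47, Adprs with -1.11 and Nudt16 with -0.40. The other Deltex genes, Dtx1, Dtx2, Dtx3 and Dtx4, had changes on recovered reads from -1.18 to -0.23, none past the threshold (limma, Benjamini-Hochberg). Of these, Dtx3 was at 1.95 and 1.95 scaled RPKM in RESTARTv3 and at 7.50 and 2.34 in untreated libraries A and B, and only library A was far from the rest. Trim25, a ubiquitin ligase that helps ZAP, had 2.07 and 2.03 scaled RPKM in RESTARTv3 against 1.40 and 1.47 in untreated libraries, with a change on recovered reads of 0.52 ± 0.37 (SE; limma voom, adjusted p = 0.771). Khnyn, a ribonuclease that works with ZAP, had a change of -0.23, and Zc3hav1l one of 0.13.

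The genes that carry the interferon signal were listed for 10 of 10, and 0 of 10 passed (limma, Benjamini-Hochberg). Stat2 and Irf9, which act together in type I signalling, had changes on recovered reads of 0.95 and 0.69. After scaling, both RESTARTv3 libraries were above both untreated ones in 6 of 10 signalling genes, these among them, against 16.2% of all genes. The receptor and kinase genes ran from -0.82 for Ifnar2 to 0.92 for Jak2, with 0.38 for Ifngr1, a subunit of the type II receptor. Untreated library A carried most of both extremes. Ifnar2 had 0.722 and 0.733 scaled RPKM in RESTARTv3 replicates 1 and 2, against 2.75 and 0.623 in untreated libraries A and B. Jak2 had 0.928 and 0.881 against 0.252 and 0.857, in the same order of libraries. Of 9 interferon ligand genes looked for, 0 are in the table. No gene with 0 reads in a library is in the table, so ligand levels were not measured here.

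Whole cochlea holds many cell types, and in bulk RNA a change in the number of cells of a type and a change in RNA per cell cannot be told apart. After scaling, 7 of 8 T and natural killer cell markers had both RESTARTv3 libraries above both untreated ones, against 16.2% of all genes. Their summed scaled RPKM was 4.70 to 5.19 in RESTARTv3 and 2.79 to 3.04 in untreated libraries. Most of this sum was Nkg7, with 4.05 and 3.61 in RESTARTv3 replicates 1 and 2 and 2.30 and 2.46 in untreated libraries A and B. Several other markers rest on few reads in untreated library A, with 6 for Cd3d and Klrb1c and 8 for Gzmb and Ncr1. Macrophage markers summed to 26.6 to 27.7 in RESTARTv3 and 18.2 to 49.0 in untreated libraries, with 3 of 8 above, against the same 16.2%. The sums for neutrophil markers were 55.2 to 84.0 in RESTARTv3 and 47.2 to 53.0 in untreated libraries, with 2 of 4 listed markers above, and those for B cell markers 3.20 to 7.39 in RESTARTv3 and 4.50 to 5.70 in untreated libraries, with 0 of 3 above. Hair cell markers were all listed and summed to 1.95 to 2.19 in RESTARTv3 and 2.61 to 4.99 in untreated libraries, with 4 of 7 below both untreated libraries, against 21.5% of all genes. Of the sum of 4.99 in untreated library A, 2.96 was Pou4f3, which had 0.939 in library B. Supporting cell markers summed to 45.3 to 47.4 in RESTARTv3 and 55.7 to 82.7 in untreated libraries, with 4 of 5 listed markers below. The part of these cell types in the level of the PARP genes was not tested. Dkc1, part of the delivered system, had 2.78 and 2.96 scaled RPKM in RESTARTv3 and 0.398 and 1.22 in untreated libraries, and delivered and mouse sequence were not told apart.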

How the data were processed

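RNA-seq of mouse cochlea (2 RESTARTv3 and 2 untreated libraries) was analysed from the RPKM values that the authors deposited. As the study's methods and the submitters' notes describe, ribosomal RNA was depleted and stranded libraries with molecular identifiers were made. The authors kept read 2, trimmed it (cutadapt 4.2), removed duplicates, extracted identifiers (UMI-tools 1.0.0), aligned to GRCm39 (STAR 2.7.10b), filtered (SAMtools 1.14) and counted per gene (HTSeq 1.14), then removed genes whose replicates disagreed. The study's methods give a limit of 2-fold between replicates for this removal, but the deposited values hold genes beyond it. Within groups, log2 ratios of reads run from -3 to 3, and no gene is listed at 0. The header gives both untreated columns the same name; they are called A and B, without order.

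Whole reads were recovered from RPKM with library totals and gene spans that make every gene whole within 0.001. Of 21230 genes, 11568 came out at the span annotated on GRCm38.p6, 5040 at a span within 1% of it, and 4622 at the smallest length that fits, which can understate reads by a whole factor. GRCm38.p6 was used only for names, spans and neighbours. No sequence of the genes was used here.

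Groups were compared with limma 3.58.1 (R 4.3.3; linear model, eBayes, trend) on log2(RPKM + 0.1), keeping 14070 genes whose mean RPKM reached 0.1, 2-sided, without covariates, with Benjamini-Hochberg adjustment over all of them at 0.05. Beside it stand the same fit after median-of-ratios scaling and limma voom on recovered reads, scaled likewise, for 18448 genes averaging 10 reads or more. These fits were run on simulated data that gave both groups the same spread, while the real pairs differ in spread. Fits without a library were not simulated. A further 22 settings were listed at the outset and 5 after seeing the data. Members, gene lists and the choice of fits were made with earlier results of these data known. All members are named. Of other lists, those that pass or up to 3 of highest mean RPKM are named by rule. Parp1, Parp8, Parp16, Dtx1, Stat2, Ifnar2, Jak2 and the single cell type markers were named after their values were seen. A gene that the rule names is left out of the text.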

Additional observations from a re-analysis of the deposited data

How the results depend on the processing

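No paired analysis was possible because the untreated columns carry no replicate numbers. Over 20 or 21 alternatives each, Parp14, Dtx3l, Parp9, Parp11 and Parp12 kept their direction in every one that tested them, and passed only in scaled and voom fits without untreated library B, where Zc3hav1 also passed by voom. Parp10 turned to 0.10 with median-of-ratios scaling, 0.30 with quantile normalization and 0.16 by limma voom, and ran from -0.68 to 0.80 when a library was left out. Helz2 then ran from -0.48 to 0.90 and Zc3hav1 from -0.46 to 0.66. The count of all genes past the threshold was 1 with no filter on low values, 4 by eBayes without trend and 2 where replicates had to agree within 2-fold, a limit that left 2492 genes and only Parp12 of the members. Leaving out a library gave 0 to 8858 genes, 0 to 6 members, 0 to 4 other PARP genes, 0 to 6 hydrolases, 0 to 3 Deltex genes, 0 to 1 partner of ZAP and 0 to 7 signalling genes, the high ends without untreated library B. Members with both RESTARTv3 libraries above the untreated ones numbered 0 as deposited, 6 after scaling, 6 per Parp1 read, and 6 to 8 after scaling with a library left out. The cause of these shifts was not tested. With 2 libraries a group the spread is poorly known, and a change that misses the threshold is not shown to be absent.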

Other observations

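By a rule on likeness, the 5 genes nearest to the mean profile of the members were Il18bp, a secreted inhibitor of interleukin-18, Meg3, an imprinted noncoding RNA, Fabp5, a fatty acid-binding protein, and the myeloid receptor genes Cd300ld and Cd300c2. The measure was the distance between log2 values scaled by median-of-ratios and centred over 4 libraries, among 12774 other genes with at least 50 reads in each. The distances were 0.148 to 0.181, while the members themselves lay 0.349 (Parp12) to 1.36 (Parp10) from their own mean. Il18bp had 1.34 and 1.21 scaled RPKM in RESTARTv3 and 0.682 and 0.773 in untreated libraries. Meg3 had 1.61 and 1.68 in RESTARTv3 and 0.854 and 1.06 in untreated libraries. With 4 libraries many genes share a profile.

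The span used for Zc3hav1 is not the only one of its kind. Of the genes whose reads are not whole near their own annotated span, 474 come out whole at exactly the annotated span of another gene whose symbol begins with theirs, as Zc3hav1l begins with Zc3hav1. Levels of such genes are on the wrong length, while ratios between libraries are unaffected. How the lengths were looked up is not given in the sources used here.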
